A study of Homo sapiens with 8 samples.

Results

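The genes that move cholesterol out of the cell, in and out of its stored esters and out of the endosome were followed in H1299 cells, a permanent line grown from a human lung carcinoma of the non-small cell type. The list of 10 comprised NCEH1, ABCA1, ABCG1, APOE, SOAT1, LIPA, NPC1, NPC2, NR1H2 and NR1H3. The members were taken as every probe set annotated with exactly 1 gene symbol equal to one of these names, which gave 24 of 49293 probe sets, for 9 of the 10 genes and of 18132 genes measured in all. NR1H2 had no such probe set and was not analysed here. The set was put together because NCEH1 fell and ABCA1 and APOE rose after USF1 knockdown, so the values of all members in that comparison are given as a description, without a p-value, and nothing is supported with them.

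RNA from transfected H1299 cells was measured on 8 one-colour Affymetrix arrays, with biotin-labelled total RNA. In the USF1 set, 3 arrays of cells given short hairpin RNA against USF1, an E-box-binding transcription factor, stood beside 3 control arrays. In the UGT1A3 set, 1 array of cells given short hairpin RNA against UGT1A3, a glucuronosyltransferase, stood beside 1 control array. All 4 groups are the same cell line in the same serum-containing medium. The labels call the controls NC and say no more of what they received, and they do not give the number or sequence of the hairpins, the time of harvest, or whether replicates were separate cultures, so the spread between replicates may be technical.

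Cells cannot degrade the sterol ring, so surplus cholesterol is either esterified for storage in lipid droplets or exported. Cholesterol taken up in lipoproteins is freed from its ester by the acid lipase LIPA in the lysosome and handed by the soluble protein NPC2 to the membrane protein NPC1, which passes it on to the rest of the cell. SOAT1 in the endoplasmic reticulum makes the storage ester, NCEH1 is a neutral hydrolase that frees cholesterol from it again, and ABCA1 and ABCG1 carry cholesterol to outside acceptors, among them particles that hold apolipoprotein E (APOE). The liver X receptors NR1H3 (LXR-alpha) and NR1H2 (LXR-beta) sense oxidised sterols and, as partners of retinoid X receptors, switch on ABCA1, ABCG1 and APOE.

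The 250 bases upstream of the RefSeq start (GRCh38.p14) are shown for the 3 genes named in the choice of the set, because one of them holds the hexamer preferred by USF1. Capitals mark every CACGTG, the symmetrical E-box bound by USF dimers, and the direct repeat TGACCGATAGTAACCT, known as the liver X receptor element of ABCA1 and read here on the reverse strand. ABCA1 lies at chr9:104928156-104928405 on the minus strand, NCEH1 at chr3:172711068-172711317 on the minus strand, and the most upstream APOE start at chr19:44905546-44905795 on the plus strand.
ABCA1: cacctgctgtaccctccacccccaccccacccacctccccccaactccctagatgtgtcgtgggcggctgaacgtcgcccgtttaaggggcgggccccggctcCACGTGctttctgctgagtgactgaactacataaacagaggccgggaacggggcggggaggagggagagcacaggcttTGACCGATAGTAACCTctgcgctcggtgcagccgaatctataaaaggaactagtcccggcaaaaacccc
NCEH1: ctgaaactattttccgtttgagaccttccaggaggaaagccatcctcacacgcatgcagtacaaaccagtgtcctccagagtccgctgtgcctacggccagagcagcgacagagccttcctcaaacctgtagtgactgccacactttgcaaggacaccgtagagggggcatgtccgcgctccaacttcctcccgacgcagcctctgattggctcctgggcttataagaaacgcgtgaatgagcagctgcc
APOE: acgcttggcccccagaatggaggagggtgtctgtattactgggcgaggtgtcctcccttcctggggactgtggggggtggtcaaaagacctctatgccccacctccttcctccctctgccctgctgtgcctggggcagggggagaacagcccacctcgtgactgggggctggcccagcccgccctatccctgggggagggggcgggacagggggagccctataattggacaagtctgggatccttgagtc
The ABCA1 hexamer spans positions -147 to -142 and its repeat spans -69 to -54, counted from the annotated start. Windows from 250 bases before to 50 after a start were on file for 9 of the 10 members, 17 windows in all, with ABCG1 the missing one. CACGTG occurred in 1 of these 17 windows, that of ABCA1, and in 7.26% of all 35114 windows. The looser E-box CANNTG, which contains CACGTG, occurred in 9 of the 17 and in 68.7% of all windows, and the NCEH1 window held it as CAGCTG at -8 to -3. The CLEAR palindrome, a longer E-box that contains CACGTG, and the consensus DR4 repeat of the liver X receptors, both searched on both strands, were in none of the 17 windows and in 0.353% and 0.0199% of all windows. The ABCA1 spelling of the repeat, with its 4 spacer bases left free, was found on either strand in 1 of the 35114 windows, that of ABCA1, whose own element gave the spelling. These matches describe letters in a window and say nothing of binding in H1299.

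Levels are deposited log2 intensities, on which a step of 1 is a doubling. A gene or probe set was treated as dim, and not tested, when its mean over the arrays of its set lay under the 40th percentile of probe sets, at 5.63 in the USF1 set and 4.76 in the UGT1A3 set. Where a gene had several probe sets, the one with the highest mean stood for it. "Rose" and "fell" are used for genes that passed an adjusted p of 0.05 in a limma fit over all 11448 tested genes of the USF1 set. In RNA from whole cultures, a change in level per cell and a change in the share of cells that express a gene cannot be told apart.

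Of the exporters and acceptors, ABCA1 about doubled after USF1 knockdown. On its brightest probe set the controls were at 8.44, 8.26 and 8.40, and the knockdown arrays at 9.37, 9.48 and 9.28. Every knockdown array lay above every control, and the nearest pair of arrays was 0.84 apart. The ABCA1 difference was 1.01 (SE 0.07, n = 3 against 3), or 201% of the control level. The second ABCA1 probe set gave 5.47, 5.45 and 5.21 in the controls, all under the dim limit, and 6.16, 6.48 and 5.95 after knockdown. It counted as bright only through the knockdown arrays, so its difference of 0.82 and the lack of overlap are set in part by the limit and are no second measurement of the rise. The remaining ABCA1 probe set was dim on all 6 arrays, at 3.03 to 3.54, with a difference of -0.07 and overlapping groups. With all 3 probe sets averaged the ABCA1 difference was 0.59.

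APOE, the apolipoprotein that takes up exported lipid, was measured by a single probe set. Controls were at 7.80, 7.73 and 7.80 and knockdown arrays at 8.40, 8.38 and 8.36, with no overlap and little spread in either group. The APOE difference was 0.60 (SE 0.03), or 152% of the control level. The suffix of this probe set (x) is the maker's mark for probes that may also match other transcripts, and no second APOE probe set was there to set beside it.

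ABCG1, the partner exporter that loads mature high-density lipoprotein, was dim on all 6 arrays. Its 5 probe sets had control means of 3.39 to 4.60 and differences of -0.33 to 0.06. In 4 of the 5 the groups overlapped, and in the dimmest the knockdown arrays, at 2.97 to 3.13, lay below the controls, at 3.34 to 3.45. At these intensities no change of ABCG1 could be read in either direction.

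The oxysterol receptor NR1H3 was measured by 1 probe set, with controls at 6.36, 6.35 and 6.39 and knockdown arrays at 6.48, 6.36 and 6.27. The groups overlapped, and the NR1H3 difference of 0.01 (SE 0.05) did not pass the threshold.

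Ester turnover held the largest difference among the measured members. NCEH1 fell on all 3 of its probe sets, each of them bright. The brightest went from 10.15, 10.10 and 10.06 to 8.22, 8.45 and 8.25 (controls first). The second read 10.04, 10.07 and 10.04 against 8.22, 8.33 and 8.18. The dimmest read 8.24, 8.41 and 8.44 against 6.76, 6.71 and 6.63. In each of the 3 the arrays of the 2 groups did not overlap, and the narrowest gap was 1.49 log2 units. The NCEH1 difference on its representative probe set was -1.80 (SE 0.06), which left 28.8% of the control level, and the other two left 28.6% and 31.6%.

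SOAT1, the enzyme that makes the ester NCEH1 cleaves, gave different pictures on its 3 bright probe sets. On the brightest, controls were at 9.48, 9.48 and 9.50 and knockdown arrays at 9.47, 9.55 and 9.35, with overlapping groups and a difference of -0.03 (SE 0.05). The second read 8.88, 8.87 and 8.86 against 9.00, 9.02 and 8.99, a shift of 0.14 with no overlap. With each probe set tested on its own, this second SOAT1 probe set rose. The dimmest differed by -0.06, again with overlap. By its representative probe set SOAT1 did not pass. LIPA rose by a small amount on both of its probe sets. On the brighter, controls were at 10.93, 10.92 and 10.95 and knockdown arrays at 11.13, 11.13 and 11.11, a LIPA difference of 0.19 (SE 0.03) or 114% of the control level. The other read 9.60, 9.71 and 9.61 against 9.86, 9.88 and 9.79, a difference of 0.21. The groups overlapped on neither.

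Of the 2 proteins that export cholesterol from the late endosome, 1 passed. NPC2, the soluble carrier, rose. On its brightest probe set controls were at 12.21, 12.27 and 12.25 and knockdown arrays at 12.53, 12.48 and 12.49, a difference of 0.25 (SE 0.03). Its second read 11.89, 11.87 and 11.92 against 12.17, 12.16 and 12.21, a difference of 0.29. These are 119% and 122% of the control level, with no overlap between groups. Its other 2 probe sets were dim in the USF1 arrays, with differences of -0.21 and -0.08 and overlapping groups, and with all 4 averaged the NPC2 difference was 0.06 and no longer passed. For NPC1, the membrane exporter, the brighter probe set had controls at 9.34, 9.37 and 9.40 and knockdown arrays at 9.37, 9.39 and 9.36, a difference of 0.003 (SE 0.03). The other NPC1 probe set differed by 0.03, and the groups overlapped on both. Whether the NPC2 and NPC1 differences are unequal was not tested.

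**Figure D1:**
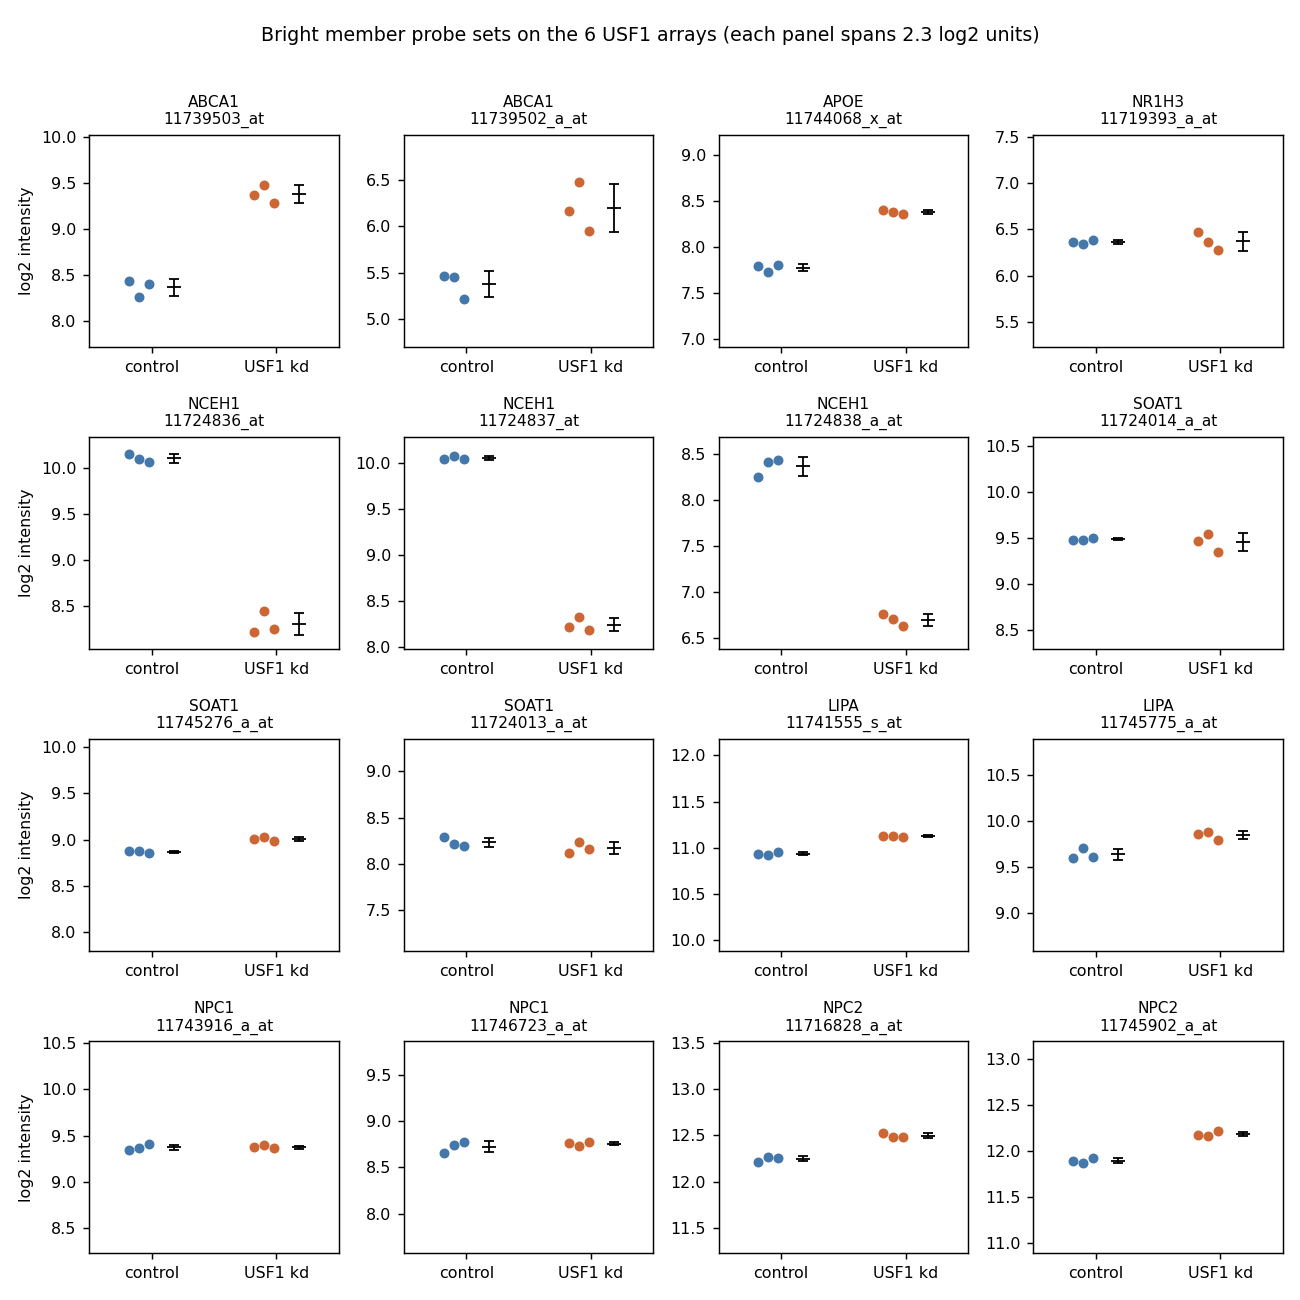
Log2 intensity of the 16 bright member probe sets on the 3 control (blue) and 3 USF1 knockdown (orange) arrays, 1 point per array, with the mean and SD in black; a gene's probe sets run from bright to dim, and each panel spans the same range. The groups are far apart for NCEH1, ABCA1 and APOE, close but separate for LIPA and NPC2, and overlap for NR1H3, NPC1 and 2 of the 3 SOAT1 probe sets. The second ABCA1 probe set was over the dim limit only through the knockdown arrays and is no second measurement of the rise.

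In all, 8 members passed the dim limit in the USF1 set. Of these, 4 rose (ABCA1, APOE, LIPA and NPC2), 1 fell (NCEH1) and 3 did not pass (NR1H3, SOAT1 and NPC1). Over all tested genes 40.7% passed, 22.0% upward and 18.7% downward. With each probe set tested on its own, 8 of the 16 bright member probe sets rose and 3 fell, where 19.8% and 17.5% of 29576 bright probe sets did. The groups did not overlap in 11 of the 16, against 51.2% of the bright probe sets. The 16, the 8 and the 11 each include the second ABCA1 probe set, which was over the limit only through the knockdown arrays. They also include the second SOAT1 probe set, although SOAT1 did not pass by its representative. Since the set was chosen on this comparison, nothing is read from these shares. The members differed widely in size. NCEH1 ranked 1 from the bottom of the 11448 differences, ABCA1 ranked 5 and APOE 48 from the top, and NPC2 and LIPA ranked 966 and 1603 from the top. The median difference was 0.10 over the 8 tested members and 0.01 over all tested genes.

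**Figure D2:**
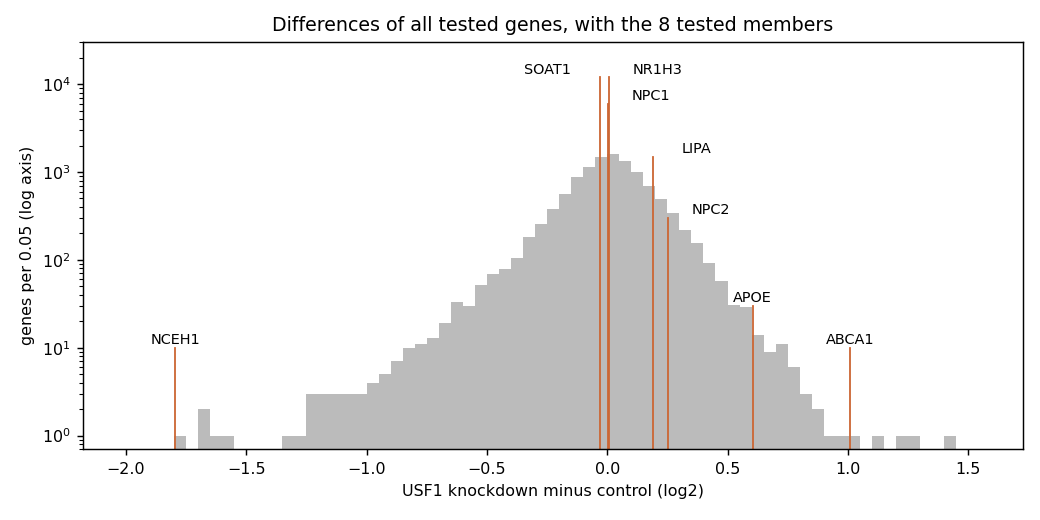
Histogram of the USF1 knockdown minus control differences (log2) of the 11448 tested genes, in steps of 0.05 with a log count axis, with orange lines at the 8 tested members. NCEH1 stands at the lower end at -1.80 and ABCA1 near the upper end at 1.01, while SOAT1, NPC1 and NR1H3 lie close to 0.

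Other genes around this pathway were followed in 7 lists in the same comparison. Together they hold 129 gene names that are not members, of which 112 had a probe set here and 82 were tested. IDOL, listed without a probe set, is another name of MYLIP, which is also listed and was tested. Of the 82, 24 rose, 8 fell and 50 did not pass. The share called was 39.0%, beside 40.7% of all tested genes, with 29.3% upward and 9.76% downward, beside 22.0% and 18.7%. The median difference was 0.03.

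Among liver X receptor targets, 5 of 9 tested genes rose and none fell in the limma fit, nor at an unadjusted p of 0.05, with a median of 0.12. Beside this list and those that follow, 22.0% of all tested genes rose and 18.7% fell. The lists were chosen with earlier results of these data known, so nothing is read from these counts. The sterol regulatory factor SREBF1 rose by 0.51 (SE 0.05, limma adjusted p = 3.25e-04), from a mean of 9.96 ± 0.08 to 10.47 ± 0.03 (SD, n = 3), although its 3 bright probe sets ran from -0.04 to 0.51. The apolipoprotein APOC1, whose gene neighbours APOE, rose by 0.23 (limma adjusted p = 0.00217), with probe sets from 0.05 to 0.23. The lysophospholipid acyltransferase LPCAT3 rose by 0.23 (limma adjusted p = 0.00516). MYLIP, the ubiquitin ligase that removes lipoprotein receptors, rose by 0.17 (limma adjusted p = 0.00889). The fifth was the desaturase SCD at 0.12, named here after its value was seen, with probe sets from -0.25 to 0.16. Of the receptors' partners, coregulators and oxysterol enzymes, 2 of 9 rose and none fell, with the same counts at an unadjusted p of 0.05 in limma. They were the coactivator NCOA1, by 0.31 (limma adjusted p = 0.00516), and the fatty acid receptor PPARA, by 0.14 (limma adjusted p = 0.0487).

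Of the efflux acceptors and lipoprotein receptors, 2 of 7 rose and none fell in limma, and 1 was lower at an unadjusted p of 0.05. The caveolar coat protein CAV1 rose by 0.35 (SE 0.03, limma adjusted p = 2.07e-04), with 4 probe sets between 0.33 and 0.40, and the receptor VLDLR rose by 0.16 (limma adjusted p = 0.0114). None of the 4 tested relatives of ABCA1 in the ABCA subfamily passed in limma; at an unadjusted p of 0.05 none was higher and 1 was lower. ABCA7 differed by -0.18 (SE 0.07) and ABCA5 by -0.06 (SE 0.08). ABCA7 is also in the list of acceptors and receptors, and it is the gene counted as lower at the unadjusted p in limma in each list.

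In sterol ester and neutral lipid turnover, 5 of 12 rose and 1 fell, with a median of 0.10. The lipid droplet coat protein PLIN2 rose by 0.20 (SE 0.03, limma adjusted p = 0.00367), monoglyceride lipase (MGLL) by 0.25, the triglyceride lipase PNPLA2 by 0.19 and the droplet protein HSD17B11 by 0.15. Bright probe sets ran from 0.20 to 0.28 for PLIN2 and from 0.10 to 0.30 for MGLL. They ran from 0.007 to 0.19 for PNPLA2 and from 0.026 to 0.15 for HSD17B11. The single fall, named after its value was seen, was the triglyceride synthase DGAT2, by 0.15. LIPE, a second neutral hydrolase of cholesterol esters, did not pass (0.12, SE 0.04, limma adjusted p = 0.0559), a gene also named after its value was seen.

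In endosomal and non-vesicular sterol transfer, 9 of 32 rose and 3 fell, with a median of 0.03. The lysosomal membrane protein LAMP1 fell by 0.80 (SE 0.03, limma adjusted p = 2.14e-05), with bright probe sets from -0.80 to -0.35. GPR155, a lysosomal cholesterol sensor, fell by 0.62 (SE 0.09, limma adjusted p = 0.00168), and the oxysterol-binding relative OSBPL6 fell by 0.26. The annexin ANXA6, found on late endosomes, rose by 0.31 (SE 0.04, limma adjusted p = 0.00111). In the list of sterol regulatory element-binding proteins, their regulators and sterol synthesis enzymes, 2 of 11 rose and 4 fell. The pseudokinase TRIB1 fell by 0.46 (SE 0.04, limma adjusted p = 2.72e-04), the processing proteases MBTPS1 and MBTPS2 fell by 0.31 and 0.26, and the retention protein INSIG1, named after its value was seen, fell by 0.18. The 2 rises were SREBF1, above, which is also in this list, and the sterol synthesis enzyme HMGCS1, by 0.12, named after its value was seen.

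**Figure D3:**
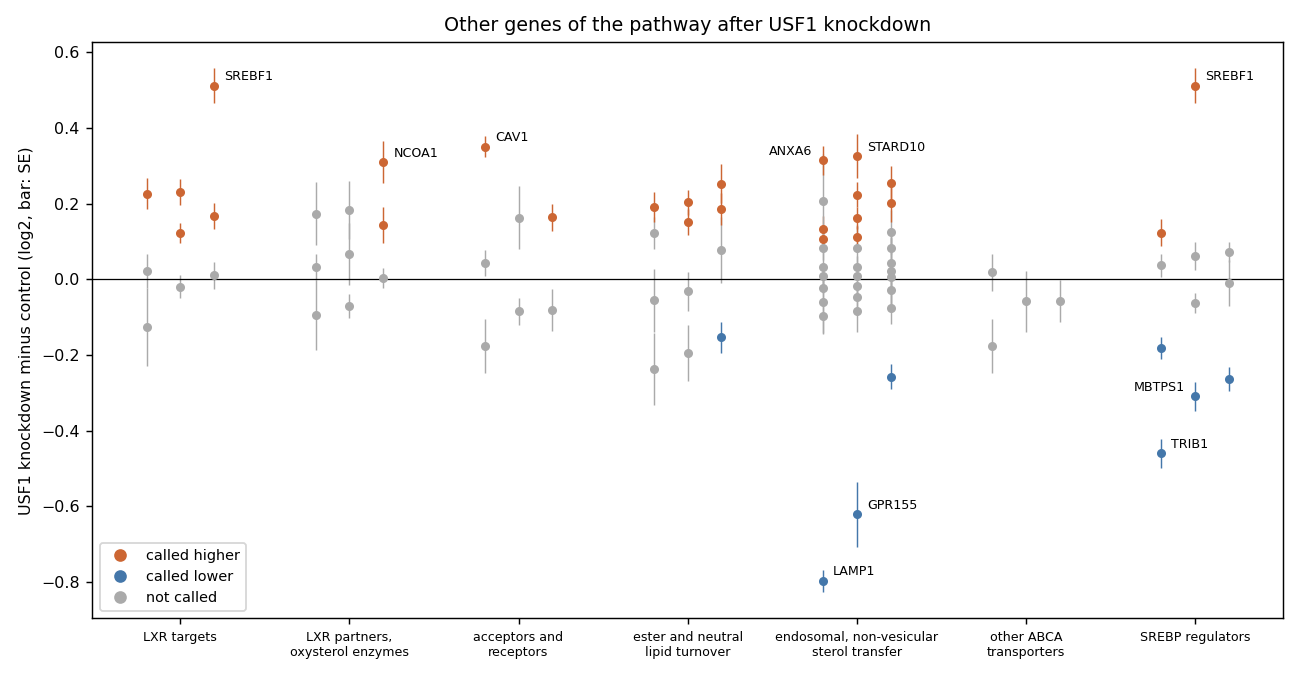
USF1 knockdown minus control difference (log2) of each tested non-member gene in the 7 lists, with its SE as a bar; orange and blue mark genes past the threshold upward and downward, grey those that did not pass. The liver X receptor targets hold 5 rises and no fall, and the list at the right, labelled SREBP regulators, holds 4 falls and 2 rises. Of all tested genes 22.0% rose and 18.7% fell, and the lists were chosen with earlier results of these data known.

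The UGT1A3 pair did not enter the choice of the set, and it has its own control array. With 1 array per group its differences have no replicate check and no p-value, and a member is counted here when it differs by at least 0.32 log2 units. ABCA1 went from 6.66 on the control array to 7.35, higher by 0.68 or at 160% of the control. Its other 2 probe sets were dim in this pair and differed by 0.16 and 0.11. APOE went from 7.70 to 8.26, higher by 0.56 or at 147%. The order of the 2 arrays was thus the same as in the USF1 set for both genes.

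NCEH1 was lower in the UGT1A3 knockdown array on all 3 probe sets, reading 8.62 and 8.40, 8.19 and 7.95, and 7.76 and 7.28. The NCEH1 differences were -0.22, -0.25 and -0.48, so that 1 of the 3 passed the limit of 0.32 while the representative, brightest one did not. After USF1 knockdown the same probe sets had differed by -1.81, -1.80 and -1.66. The 3 SOAT1 probe sets differed by -0.04, 0.14 and 0.43 in the pair, spread over both sides of 0 as in the USF1 set.

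The endosomal genes were both higher in this pair. NPC1 went from 7.51 to 7.95, higher by 0.44, and its second probe set differed by 0.27. NPC2 went from 11.33 to 11.68, higher by 0.35, and its other bright probe sets differed by 0.18 and 0.10. LIPA differed by 0.24 and 0.36 on its 2 probe sets, and NR1H3 by 0.23. ABCG1 was dim here too, at 2.58 to 3.71, with differences of -0.11 to 0.14.

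Of the 8 members bright enough in the UGT1A3 pair, 4 were higher by at least 0.32 in the knockdown array (ABCA1, APOE, NPC1 and NPC2) and none was that much lower. Over all 11620 genes 11.1% were that much higher and 8.02% that much lower. With the mean of all probe sets 2 members passed the limit, APOE and NPC1, and with the arrays centred on their medians NPC2 did not, which left 3. At 1.5-fold only ABCA1 did, where 3.56% of all genes passed. The median difference was 0.29 over the 8 members and 0.02 over all genes. In 7 of the 8 members the direction was the same as in the USF1 set, the exception being SOAT1. Its representative probe set was not the same in the USF1 set and the pair. The SOAT1 probe set representative in the USF1 set differed by -0.03 there and -0.04 in the pair. The one representative in the pair differed by 0.14 in each, and the remaining one by -0.06 in the USF1 set and 0.43 in the pair. Over the 11130 genes with both differences 55.2% had the same direction in both sets. For NR1H3 and NPC1 that direction in the USF1 set rests on differences of 0.01 and 0.003, well within their SE.

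**Figure D4:**
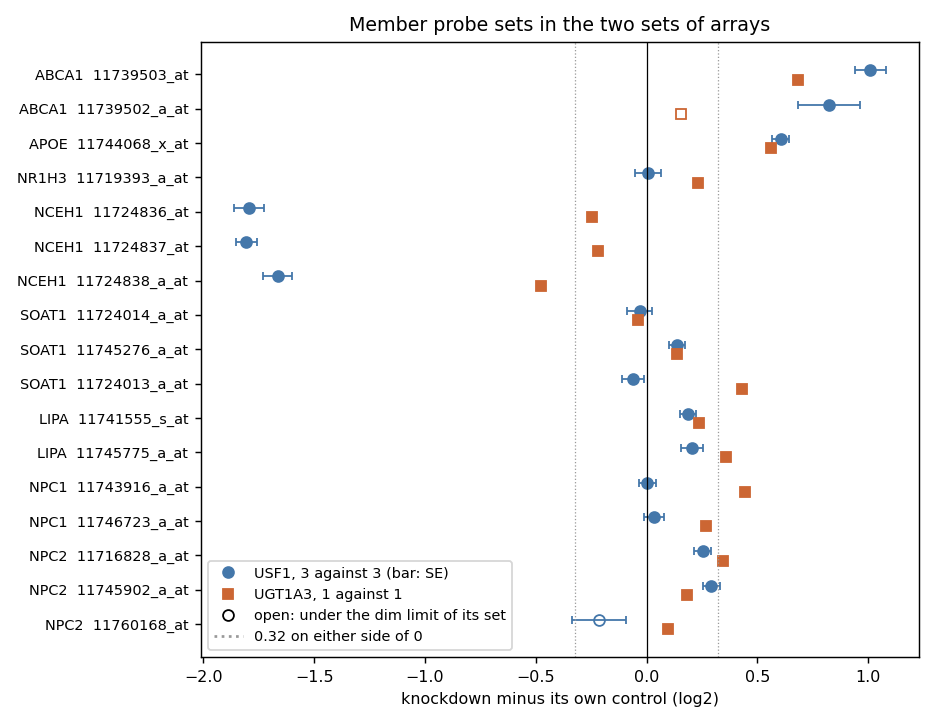
Knockdown minus control difference (log2) of the 17 member probe sets that were bright in at least 1 set, in the USF1 set (blue circles, 3 against 3 arrays, SE bars) and in the UGT1A3 pair (orange squares, 1 against 1), with open symbols for probe sets under the dim limit and dotted lines at 0.32 on either side of 0. ABCA1 and APOE lie to the right in both sets, NCEH1 lies far to the left in the USF1 set and between -0.48 and -0.22 in the pair, and NPC1 lies at 0 in the USF1 set and to the right in the pair. The SE bars come from a fit over all probe sets except controls, so they differ from the SEs in the text. In the USF1 set the second ABCA1 probe set was over the dim limit only through the knockdown arrays.

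The other genes of the 7 lists did not share one direction in the UGT1A3 pair. Of 82 that were bright enough, 8 were higher and 6 lower by at least 0.32, a share of 17.1% beside 19.2% of all genes, with a median of 0.05. Among liver X receptor targets SMPDL3A, a secreted phosphodiesterase, was higher by 0.57 and the fatty acid synthase FASN lower (-0.52), while of the targets that rose after USF1 knockdown APOC1 was higher by 0.47 and SREBF1 lower (-0.42), both named here after their values were seen. The receptor PPARA was higher by 0.82 and TRIB1 by 0.61, whereas TMEM97, which binds NPC1, was lower (-0.58). GRAMD1C, an endoplasmic reticulum sterol carrier, was higher by 0.69. The receptor LRP8 was lower (-0.52) and VLDLR higher by 0.41, the lipase activator ABHD5 was lower (-0.33), and ABCA10 was higher by 0.39.

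As a check of the labels, USF1 had a mean of 6.43 in its controls and 6.03 after its knockdown, 75.6% of the control level (limma adjusted p = 0.00818). This rests on its only probe set, whose knockdown arrays, at 6.06, 5.88 and 6.13, lay near the dim limit of 5.63. In the UGT1A3 pair USF1 read 4.73 on the control array and 4.98 on the knockdown array, higher by 0.25 and near the limit of 4.76. UGT1A3 could not be checked on its own, since each probe set that matches it also matches neighbours at the UGT1A locus, and all lay under the dim limit in both sets. The array medians were 6.53 to 6.55 in the USF1 set and 5.59 and 5.63 in the UGT1A3 pair, so levels were not compared across the sets. The keratin KRT18 and vimentin (VIM) were bright in all groups, at means of 12.81 and 14.56 in the USF1 controls. Of the other markers of the line on the same list, KRT8 rose by 0.25 after USF1 knockdown (limma adjusted p = 0.00197), and KRT19, EPCAM and CDH1 were dim. Of 12 macrophage and leukocyte markers, cells in which this pathway is best known, 10 were dim in the USF1 set, among them PTPRC, CD14 and CSF1R, and neither CD68 (-0.09) nor TYROBP (-0.02) passed. Of 8 hepatocyte markers 7 were dim, ALB and APOB included. The eighth, SERPINA1, rose by 0.22 after USF1 knockdown (limma adjusted p = 0.015). The summed linear intensity of the 8 was 294 to 317 in the controls and 317 to 323 after knockdown. For the 12 macrophage and leukocyte markers the sum was 999 to 1023 in the controls and 960 to 995 after knockdown. Of 8 alveolar and airway markers 4 were dim and none of the other 4 passed. Their sum was 484 to 508 in the controls and 461 to 565 after knockdown. Between the UGT1A3 arrays SERPINA1 was higher by 1.00 and CD68 by 0.47. The part of SERPINA1- or CD68-expressing cells in the APOE and ABCA1 values was not tested.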

How the data were processed

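The authors deposited 1 table of probe set intensities on a log2 scale, a base inferred from their range. Per the submitters' processing notes MAS5 was used in some role, and how the arrays were scaled to each other is not stated in those notes. Probe sets were named from the platform annotation, with symbols updated by Entrez number, and 102 control probe sets were left out. Of the other probe sets 44988 carried 1 gene symbol. The USF1 set was fitted with limma 3.58.1 (R 4.3.3, lmFit and eBayes, 3 against 3 arrays, no block), with Benjamini-Hochberg adjustment over all tested genes and two-sided p-values. SE is the moderated standard error. The UGT1A3 pair gives differences only. The fit was tested on simulated data.

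The members and lists were chosen with earlier results of these data known. Named genes are all members, the targeted genes, in each list up to 4 non-members of smallest adjusted p (where none passed, the 2 of largest change), and in the UGT1A3 pair up to 2 per list. The alternatives are those in the closing section. Promoter windows came from RefSeq (GRCh38.p14). The number of arrays limits the precision.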

Additional observations from a re-analysis of the deposited data

How the results depend on the processing

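After USF1 knockdown the 119 recomputed member differences kept their direction and their side of the threshold in 112 cases. The settings were quantile normalization, median centring, no dim limit, a 60th percentile limit, 16 intensity units added, the mean of all probe sets, all probe sets tested singly, a robust prior with an intensity trend, the replicate block and leaving out each array. The changed dim limits, the tests of probe sets singly, the robust prior and the block left the differences themselves unchanged. Under those settings a direction could not change, only a call. NPC2 lost its call with the mean of all probe sets (0.06), which takes in its dim probe sets. The 6 changes of sign were in members that did not pass: SOAT1 was 0.015 with the mean of all probe sets, and leaving out 1 array gave -0.076 to 0.021 for SOAT1, -0.011 to 0.019 for NPC1 and -0.048 to 0.054 for NR1H3. Over the same settings NCEH1 ran from -1.87 to -1.74, ABCA1 from 0.59 to 1.06, APOE from 0.57 to 0.62 and LIPA from 0.18 to 0.20. Leaving out 1 array gave 3644 to 4365 called genes. With quantile normalization or median centring the counts of the 7 lists at the adjusted p were as given, except that 6 genes of ester and neutral lipid turnover rose in place of 5. With quantile normalization 0 of the ABCA relatives was lower at an unadjusted p of 0.05 in limma, in place of 1. In the UGT1A3 pair the count of members past the fold limit was 2 with the mean of all probe sets, where ABCA1 became dim and NPC2 differed by 0.16, 3 with arrays centred on their medians, where NPC2 differed by 0.315, just under the limit, and 1 at 1.5-fold, in place of 4.

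The labels do not say that a replicate number marks a shared culture. Deviations of same-numbered arrays correlated at -0.10, 0.20 and 0.09. For control arrays 2 and 3, but not 1, the same-numbered knockdown array gave the highest correlation. These values do not settle whether the arrays were paired, and the main fit did not take the numbers as pairs. With the replicate number as a block 4233 genes were called in place of 4657, and 4 members rose and 1 fell as without it.

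Intensity limits the reading of ABCG1, NR1H3 and USF1, which are dim or near the limit, and of the UGT1A genes.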
